A study of Arabidopsis thaliana with 12 samples.

Results

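AT1G33055 and AT4G10270 are 2 Arabidopsis thaliana genes whose transcripts are known to accumulate when oxygen is short. They were followed across 12 Affymetrix ATH1 arrays of rosette leaves from plants silenced for SPH1, a signalling protein, and from plants of the Col-0 accession. The genes were chosen because their signals on these same arrays, mainly on 1 array of the silenced plants, stood apart. Their levels are therefore given as a description without a test. Each is measured by 1 probe set that is paired with that gene alone, and these are 2 of 13355 genes with a probe set of their own, on an array of 22810 probe sets of which 13513 have exactly 1 gene. The 4 groups of 3 arrays were SPH1 RNAi at growth stage 1.14, Col-0 at stage 1.14, SPH1 RNAi at stage 1.05 and Col-0 at stage 1.05. These stages belong to the standard Arabidopsis scale that counts rosette leaves, so stage 1.14 is the later. The RNA of 40 plants was pooled for each array, and all groups were grown in a greenhouse on compost at 20 °C, 80% humidity and a 16 h photoperiod in a normal atmosphere. No low-oxygen treatment is named for any group. The sources used here name neither the number of RNAi lines nor the promoter of the construct. SPH1 has no listed probe set here, so its silencing was not checked.

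In plant cells with ample oxygen, plant cysteine oxidases mark the ERF-VII transcription factors for degradation through the N-degron pathway. When oxygen runs short these factors persist and switch on a core set of genes. That set includes the enzymes of fermentation, which keep sugar breakdown running without respiration. Both genes belong to this core set. The molecular function of AT1G33055 is not known, and AT4G10270 belongs to a family of small proteins named for their response to wounding. Sequences of the 2 genes were not used here.

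The array of SPH1 RNAi stage 1.14 replicate 1 differed from its group over the whole transcriptome. Its log2 signals correlated with those of replicates 2 and 3 at r = 0.894 and r = 0.904, and replicates 2 and 3 correlated with each other at r = 0.969. The titles of replicates 2 and 3 of that group carry the word repeat, without saying what was repeated, and that of replicate 1 does not. Replicate 3 lacks the RNAi tag of the other silenced arrays and was placed by its source name. The deposited signals have 1 trimmed mean on every array, and median signals lay between 37.8 and 48.3. Average background was 75.5 on replicate 1 of SPH1 RNAi stage 1.14, within the range of 68.54 to 136.5 over the 12 arrays. Green-leaf markers were bright throughout: the summed signal of the 3 that could be read was 6929.9 on that replicate 1 and 8036.7 to 14186.8 on the other 11 arrays. In leaf RNA of this kind, fewer cells of a type and less RNA per cell cannot be told apart. The labels do not say whether the pools of a group were grown separately, so p-values measure only the spread between these samples.

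AT1G33055 was read by a probe set near the bottom of the scale everywhere except in the older silenced leaves. Its signal in SPH1 RNAi stage 1.14 was 428.6, 21.9 and 36.6 on replicates 1, 2 and 3, against 4.7, 3.4 and 3.9 in Col-0 stage 1.14. All 3 silenced arrays lay above all 3 Col-0 arrays of that stage, and replicate 1 lay 14.65 times above the mean of its own 2 sister arrays. At stage 1.05 the signal was 3.8, 3.0 and 4.6 in SPH1 RNAi, against 3.4, 3.1 and 2.7 in Col-0. Those 2 groups overlapped each other, and both overlapped Col-0 stage 1.14. The order of mean signals was 162.4 ± 230.7 in SPH1 RNAi stage 1.14, 4.0 ± 0.656 in Col-0 stage 1.14, 3.8 ± 0.8 in SPH1 RNAi stage 1.05 and 3.067 ± 0.351 in Col-0 stage 1.05 (SD, n = 3 each). Of the 3 steps in that order, the step between SPH1 RNAi and Col-0 at stage 1.14 was the one without overlap. The SD of the highest group exceeded its mean because replicate 1 carried most of the signal.

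AT4G10270 had a higher floor and varied in all groups. Its signal in SPH1 RNAi stage 1.14 was 593.4, 75.6 and 91.8 on replicates 1, 2 and 3, against 20.6, 26.7 and 14.5 in Col-0 stage 1.14. Here too all 3 silenced arrays lay above all 3 Col-0 arrays, as was the case for 17.9% of all tested probe sets, and replicate 1 lay 7.09 times above the mean of its 2 sister arrays. At stage 1.05 the signal was 84.5, 43.6 and 32.7 in SPH1 RNAi, against 68.5, 23.7 and 22.6 in Col-0. Replicate 1 was the highest array of both genotypes at that stage, and the genotypes overlapped. Mean signals were 253.6 ± 294.4 in SPH1 RNAi stage 1.14, 53.6 ± 27.31 in SPH1 RNAi stage 1.05, 38.27 ± 26.19 in Col-0 stage 1.05 and 20.6 ± 6.1 in Col-0 stage 1.14 (SD, n = 3 each). Each of these groups overlapped its neighbour in the order, so none of the 3 steps cleared the spread of the arrays.

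**Figure D1:**
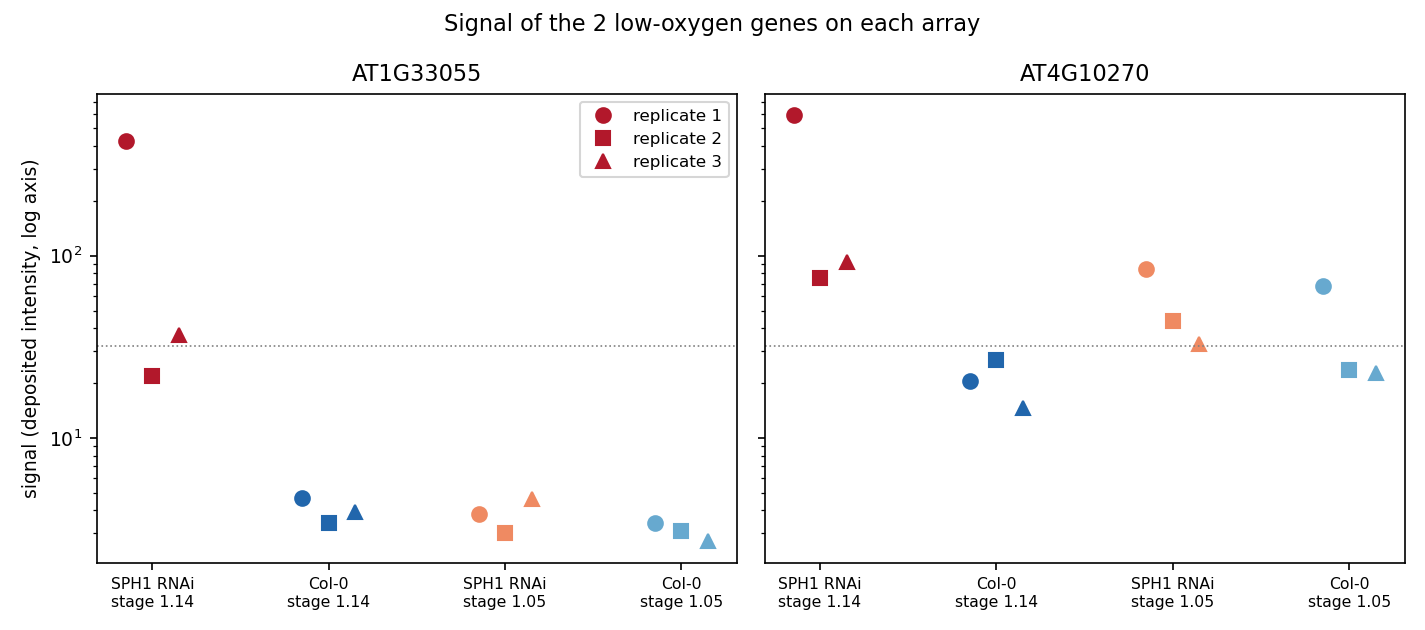
Signal intensity of AT1G33055 and AT4G10270 on each of the 12 arrays, on a log axis, by group. Marker shapes stand for replicate numbers and the dotted line marks a signal of 32, the lowest mean at which a probe set was tested. SPH1 RNAi stage 1.14 replicate 1 is the highest array for both genes, at 428.6 and 593.4.

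The genes differed in what remained once that array was set aside. The mean of AT1G33055 over all arrays was 43.31, and over the 11 arrays without SPH1 RNAi stage 1.14 replicate 1 it was 8.28. It therefore reached the minimum mean of 32 that was asked of a tested probe set through that array alone. The mean of AT4G10270 was 91.52 over all arrays and 45.89 over the same 11, so it stayed above the minimum. On the scale of log2(signal + 16), which compresses differences between weak signals, SPH1 RNAi exceeded Col-0 at stage 1.14 by 2.26 for AT1G33055 and by 2.33 for AT4G10270. Leaving out each array of the 2 groups in turn moved these differences between 1.16 and 2.94 for AT1G33055 and between 1.45 and 2.82 for AT4G10270. The lowest of each range came without replicate 1 of SPH1 RNAi, and both genes were still higher in SPH1 RNAi there. Replicates 2 and 3 of the silenced plants both lay above every Col-0 array of the stage for each gene, as did 24% of all probe sets with 1 gene.

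At stage 1.05 the difference between SPH1 RNAi and Col-0 was 0.05 for AT1G33055 and 0.39 for AT4G10270 on the same log2 scale. Between stages in the silenced plants, stage 1.14 exceeded stage 1.05 by 2.28 for AT1G33055 and by 1.46 for AT4G10270. Without replicate 1 of SPH1 RNAi stage 1.14 these stage differences were 1.17 and 0.58. In Col-0 the corresponding differences were 0.07 for AT1G33055 and -0.48 for AT4G10270. In Col-0 the 2 stages overlapped for AT4G10270 and met at a signal of 3.4 for AT1G33055.

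The 2 genes tracked each other chiefly through 1 array. Pearson's r between their log2 levels was 0.906 over the 12 arrays and 0.610 over the 11 without SPH1 RNAi stage 1.14 replicate 1. The points share libraries and groups, so both values are descriptions.

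Other genes of the low-oxygen response were read from lists drawn up by role. Of 53 such genes beyond AT1G33055 and AT4G10270, 29 had a probe set paired with them alone. The fermentation enzymes ADH1 and PDC1 and the regulators HRE1, LBD41 and PCO1 are among those without one and were not analysed here. On SPH1 RNAi stage 1.14 replicate 1, 16 of the 29 lay at least 1 above the mean of replicates 2 and 3 on the log2 scale, which is 55.2% of the list, against 1.66% of all probe sets with 1 gene. Their median deviation was 1.30, against 0.0034 over all probe sets. On the 9 arrays of the other 3 groups, each set against its own group in the same way, the list median lay between -0.034 and 0.026, and at most 1 of the 29 was as far above. For replicates 2 and 3 of SPH1 RNAi stage 1.14 the mean they are set against contains replicate 1, so their values are not compared. AT1G33055 deviated by 3.32 and AT4G10270 by 2.62. Ranked by this deviation among the 13513 probe sets with 1 gene, they stood at places 3 and 10. The array was singled out because of such genes, so these values describe it and carry no test.

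**Figure D2:**
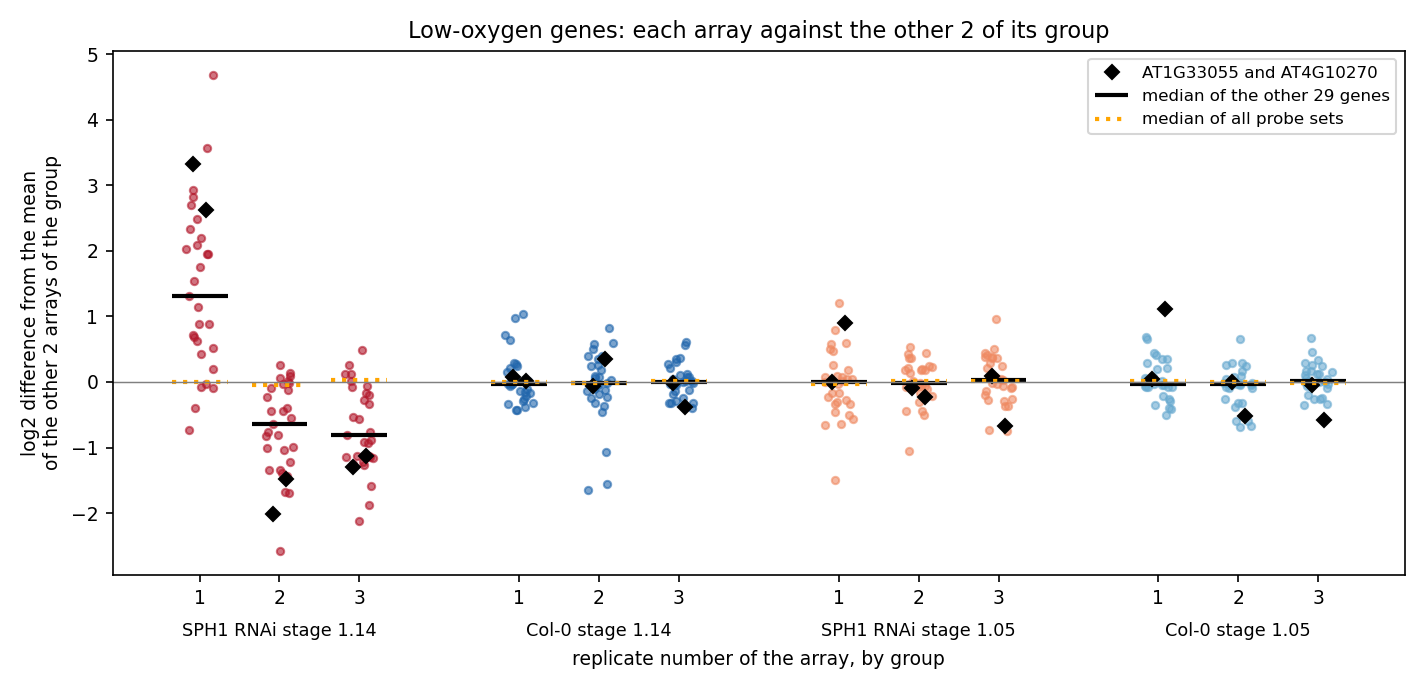
Difference of log2(signal + 16) between each array and the mean of the other 2 arrays of its group, for the 29 other low-oxygen genes (circles) and for AT1G33055 and AT4G10270 (black diamonds). Black bars mark the median of the 29 genes and dotted bars the median of all probe sets. The list median is 1.30 on SPH1 RNAi stage 1.14 replicate 1 and lies between -0.034 and 0.026 on the 9 arrays of the other groups. Replicates 2 and 3 of SPH1 RNAi stage 1.14 are set against a mean that contains replicate 1.

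Among the other low-oxygen genes with a mean signal of at least 32, AT1G19530 (RGAT1) behaved most like AT1G33055. The list placed it with fermentation and sugar breakdown, a role that was not checked here. The signal of AT1G19530 was 602.7 on replicate 1 of SPH1 RNAi stage 1.14, against 5.6 and 10.7 on replicates 2 and 3. On the 9 arrays of the other groups it reached at most 4.8. It held place 1 in the ranking, with a deviation of 4.69. The lactate dehydrogenase AT4G17260, which regenerates NAD+ by making lactate, gave 379.2 on replicate 1, against 216.4 and 123.2 on replicates 2 and 3. The pyruvate decarboxylase PDC2, which opens the route to ethanol, gave 634.2, against 470.8 and 305.5. For PDC2 the Col-0 arrays of the same stage were higher still, at 907.4, 1175.3 and 872.1.

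Among regulators and signalling proteins, HRA1 (AT3G10040), a trihelix protein that dampens the activity of an ERF-VII factor, gave 136.1 on replicate 1, against 18.1 and 16.3 on replicates 2 and 3. Its highest signal on the 9 arrays of the other groups was 19.8. AT3G03270, a universal stress protein known as HRU1, gave 460.0, against 112.2 and 89.8. The calmodulin-like protein CML38 gave 51.8, against 25.4 and 31.1. All 3 were highest on replicate 1 within their group, but CML38 reached 56.1 on replicate 2 of Col-0 stage 1.14.

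Most of the remaining low-oxygen genes have no settled function, and several were close to absent elsewhere. AT4G39675 gave 196.8 on replicate 1 of SPH1 RNAi stage 1.14, against 2.7 and 1.1 on replicates 2 and 3. AT5G10040 gave 129.9, against 2.2 and 7.2, and AT4G33560 gave 235.9, against 19.2 and 15.5. These genes shared with AT1G33055 a low signal on the arrays of the other 3 groups, where their highest values were 12.3, 6.6 and 20.1. AT4G27450 gave 1800.8 on replicate 1, against 252.5 and 275.0 on replicates 2 and 3. Its highest value in the other groups was 490.7. In all, 24 of the 29 genes were above both sister arrays on replicate 1 and 20 had their highest signal of all 12 arrays there. The corresponding shares over all probe sets with 1 gene were 36.5% and 14.1%. The 5 genes that lay below the mean of the sister arrays were AT4G17670, AT3G23170, AT1G72940, AT3G02840 and AT5G45960, with deviations between -0.74 and -0.03.

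**Figure D3:**
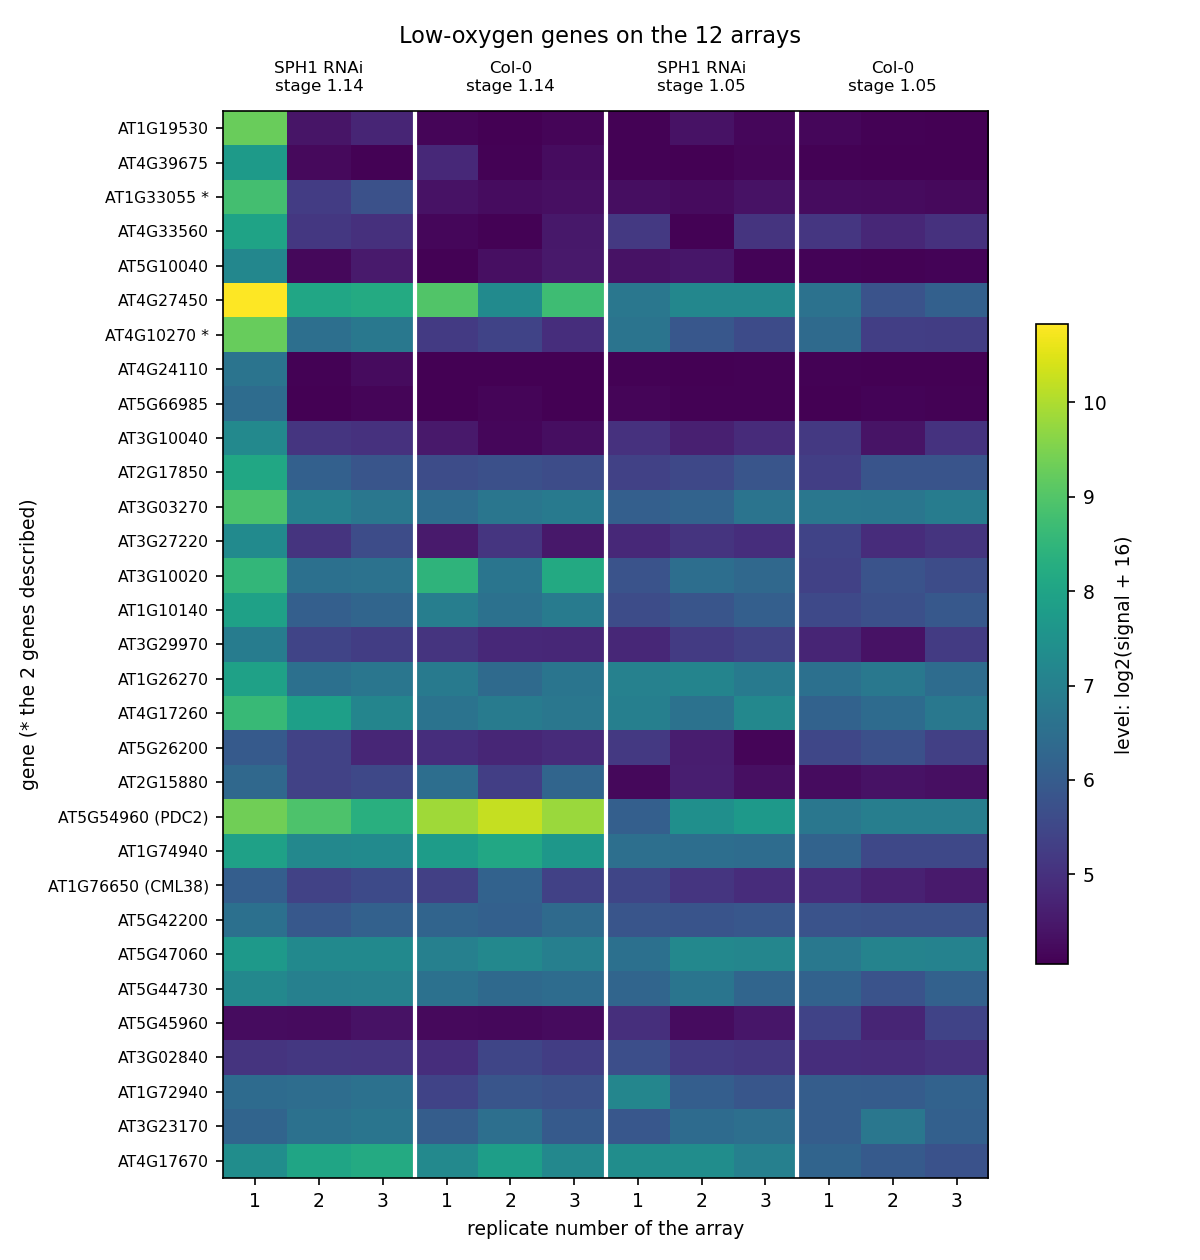
Signal of AT1G33055, AT4G10270 and the 29 other low-oxygen genes on each of the 12 arrays, as log2(signal + 16), with genes in rows ordered by their deviation on SPH1 RNAi stage 1.14 replicate 1 and arrays in columns by group. The column of SPH1 RNAi stage 1.14 replicate 1 is the highest of the 12 arrays for 20 of the 29 genes.

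The ranking of that array held genes of other kinds as well. Of its first 20 probe sets, 7 were low-oxygen genes from the list besides AT1G33055 and AT4G10270. The others included GH3.3 and WES1, enzymes that conjugate auxin to amino acids, and PYK10, a root β-glucosidase of ER bodies. PYK10 gave 355.2 on replicate 1 of SPH1 RNAi stage 1.14, against 39.4 and 61.3 on replicates 2 and 3. The summed signal of the 8 root markers read here was 529.5 on that array, against 169.4 and 186.7 on its sister arrays and 107.2 to 143.6 in Col-0 stage 1.14. At stage 1.05 the same sum was 530.3 to 851.8 in SPH1 RNAi and 554.6 to 871.2 in Col-0. Of the 8 root markers, 5 deviated upwards on replicate 1 of SPH1 RNAi stage 1.14, as did 11500 of 22746 probe sets without controls. PYK10 alone did so by at least 1 on the log2 scale, against 2.25% of those probe sets. The 3 root markers with a mean signal of at least 32 were PYK10, JAL22 and JAL33, with deviations of 2.50, 0.97 and 0.81. The median deviation of all 8 root markers was 0.16, and the others among them were below that mean signal. Of 12 listed genes of sugar starvation 3 could be read, MCCA, MCCB and IVD, all of leucine breakdown. Each had its highest signal of the 12 arrays on replicate 1, as did 14.1% of probe sets with 1 gene. Their deviations were 1.07, 0.64 and 0.82. The wounding gene THI2.1, too weak to be tested, deviated by -0.44. The ratio of 3′ to 5′ actin control probes, a sign of RNA integrity, was 1.258 on the log2 scale on replicate 1, against 0.912 and 1.587 on replicates 2 and 3. The same ratio of GAPDH probes was 0.518 on replicate 1, the highest of its group, against 0.041 and 0.345. The part of root RNA, starvation and RNA integrity in the levels of the 2 genes was not tested.

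Replicates 2 and 3 of SPH1 RNAi stage 1.14 were also set against Col-0 without replicate 1. Of the 29 other low-oxygen genes, 13 were above all 3 Col-0 arrays on both, or 44.8%, against 24% of all probe sets with 1 gene. Another 4 were below all 3 on both, or 13.8%, against 10.9%. The median difference of the list was 0.10, against 0.06 over all probe sets with 1 gene. HRA1, which was too weak to be tested, was among the 13 above, with 18.1 and 16.3 in SPH1 RNAi against 6.7, 1.8 and 3.7 in Col-0. Weaker still were AT1G19530, at 5.6 and 10.7 against at most 1.6, and AT4G24110, at 1.1 and 2.8 against at most 0.8. Signals this low lie under the offset of 16, so the count of 13 includes differences close to the floor. Others of the 13 were brighter, such as AT4G17260, at 216.4 and 123.2 against at most 99.6. The 4 below were PDC2, AT1G74940, AT1G10140 and AT3G10020, all brighter than HRA1. PDC2 gave 470.8 and 305.5 in SPH1 RNAi, against 907.4, 1175.3 and 872.1 in Col-0. AT1G74940 gave 132.7 and 141.4, against 206.3, 258.7 and 182.0. AT1G33055 and AT4G10270, which were above on both arrays, are not counted in these shares.

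The group comparisons of the other low-oxygen genes could be tested for 16 of the 29, those with a mean signal of at least 32. One of these, AT1G19530, had a mean of 52.86 over the 12 arrays and 2.87 without replicate 1 of SPH1 RNAi stage 1.14, so it was tested through that array alone. It passed in no comparison and is left out of the counts and medians that follow, which leaves 15 genes. Between SPH1 RNAi and Col-0 at stage 1.14, 2 of the 15 rose and 0 fell, where 4.7% of all tested probe sets rose and 2.06% fell (limma, Benjamini-Hochberg adjusted p under 0.05). With array quality weights 5 rose and 2, PDC2 and AT3G10020, fell. With no filter on the mean signal or with the arrays of these 2 groups alone, 0 passed. The shares above belong to the main fit, so the counts under other settings have no share beside them. In the main fit the median log2 difference was 0.42, against 0.04 over all tested probe sets. That median includes replicate 1 of SPH1 RNAi, on which the 16 tested genes, AT1G19530 included, deviated by a median of 0.93. All SPH1 RNAi arrays lay above all Col-0 arrays for 5 of the 15, against 17.9% of all tested probe sets, and below them for 1, PDC2, against 10.3%. The lactate dehydrogenase AT4G17260 averaged 239.6 ± 129.6 in SPH1 RNAi and 90.63 ± 8.497 in Col-0 (SD, n = 3 each), a log2 difference of 1.14 ± 0.30 (SE, limma adjusted p = 0.0434). AT5G44730, a hydrolase of the HAD superfamily, averaged 118.8 ± 10.61 and 72.27 ± 6.108, a difference of 0.61 ± 0.15 (limma adjusted p = 0.0345). Without replicate 1 of SPH1 RNAi neither passed, at 0.76 for AT4G17260 (limma adjusted p = 0.0924) and 0.55 for AT5G44730 (limma adjusted p = 0.0876). Neither passed without any 1 of the 3 Col-0 arrays of the stage, and of the 12 arrays left out in turn, 10 ended the call of AT4G17260 and 5 that of AT5G44730. PDC2 averaged 470.2 ± 164.4 in SPH1 RNAi and 984.9 ± 165.8 in Col-0 and missed the threshold, at -1.09 ± 0.36 (limma adjusted p = 0.0880).

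At stage 1.05, AT4G17670 was the 1 gene of the 15 that rose in SPH1 RNAi and 0 fell, where 4.57% of all tested probe sets rose and 0.762% fell. It averaged 136.8 ± 21.3 in SPH1 RNAi and 47.83 ± 10.09 in Col-0, a log2 difference of 1.26 ± 0.23 (limma adjusted p = 0.00639). The call held whichever of the 12 arrays was left out. AT1G74940 passed as well without replicate 1 of SPH1 RNAi stage 1.14 or without replicate 1 of Col-0 stage 1.05, for a count of 2. The list median was 0.29, against 0.04 over all tested probe sets. The groups did not overlap for 6 of the 15 that were higher, against 15.9% of all tested probe sets, and for 1 that was lower, AT3G03270, against 11.7%. AT4G17670 was the low-oxygen gene with the lowest deviation on replicate 1 of SPH1 RNAi stage 1.14, so the gene that passed here did not share the pattern of AT1G33055.

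Several other low-oxygen genes rose with leaf stage in Col-0. Between stage 1.14 and stage 1.05 in Col-0, 8 of the 15 rose and 0 fell, where 23.7% of all tested probe sets rose and 21% fell, and the list median was 0.42 against 0.02. PDC2 had 907.4, 1175.3 and 872.1 at stage 1.14, against 90.6, 106.2 and 108.1 at stage 1.05, a log2 difference of 3.08 ± 0.36 (limma adjusted p = 3.871e-05). AT3G10020 had 337.3, 85.9 and 272.2, against 24.6, 38.7 and 33.0, a difference of 2.19 ± 0.52 (limma adjusted p = 0.00432). Both sets of arrays were clear of each other. AT4G27450 had 490.7, 141.4 and 403.5, against 80.8, 38.5 and 53.7 (2.17 ± 0.62, limma adjusted p = 0.0133). The other 5 that rose were AT1G74940, AT4G17670, AT1G10140, AT5G42200 and AT5G44730. The smallest of their log2 differences was 0.42, in AT5G44730. The largest of the 5 was that of AT1G74940, with 206.3, 258.7 and 182.0 at stage 1.14, against 57.4, 30.1 and 29.6 at stage 1.05. Every stage 1.14 array lay above every stage 1.05 array for 8 of the 15, against 30.6% of all tested probe sets, and below for 1, AT1G72940, against 28%. PDC2, AT3G10020, AT1G74940 and AT4G17670 passed whichever array was left out. The count of 8 became 5 without replicate 1 or without replicate 3 of Col-0 stage 1.14, and 4 without replicate 2 of Col-0 stage 1.05. AT1G33055 and AT4G10270, at 0.07 and -0.48, lay outside the range of these 8.

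In SPH1 RNAi, 3 of the 15 rose at stage 1.14 relative to stage 1.05 and 0 fell, where 5.78% of all tested probe sets rose and 4.46% fell. They were PDC2 (1.79 ± 0.36, limma adjusted p = 0.0108), AT1G74940 (1.00 ± 0.22, limma adjusted p = 0.0174) and AT5G44730 (0.67 ± 0.15, limma adjusted p = 0.0189). The list median was 0.92, against 0.02 over all tested probe sets. It includes replicate 1 of SPH1 RNAi stage 1.14, and a median without that array is not given. Of the 15, 11 had every stage 1.14 array above every stage 1.05 array, against 15.8% of all tested probe sets, and 0 had the reverse, against 13.8%. The count of 3 became 6 without replicate 3 of SPH1 RNAi stage 1.14 and 1, PDC2, without replicate 3 of SPH1 RNAi stage 1.05. The interaction of genotype and stage passed for 0 of the 15 by limma, where 3.36% of all tested probe sets passed. At an unadjusted limma p under 0.05 there were 4 of the 15, against 2632 of all 13263 tested probe sets. The interaction passed for 1 gene without replicate 1 of SPH1 RNAi stage 1.14 or replicate 1 of Col-0 stage 1.05. It passed for 2 without replicate 1 of SPH1 RNAi stage 1.05. The main fit of all 12 arrays, unweighted and without the replicate block, therefore did not show a genotype difference in the response to stage. With array quality weights the interaction passed for PDC2, AT3G10020 and AT1G74940, 3 genes whose stage difference was smaller in SPH1 RNAi. With the replicate block it passed for AT1G74940. The share of 3.36% belongs to the main fit, so these counts have no share beside them.

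**Figure D4:**
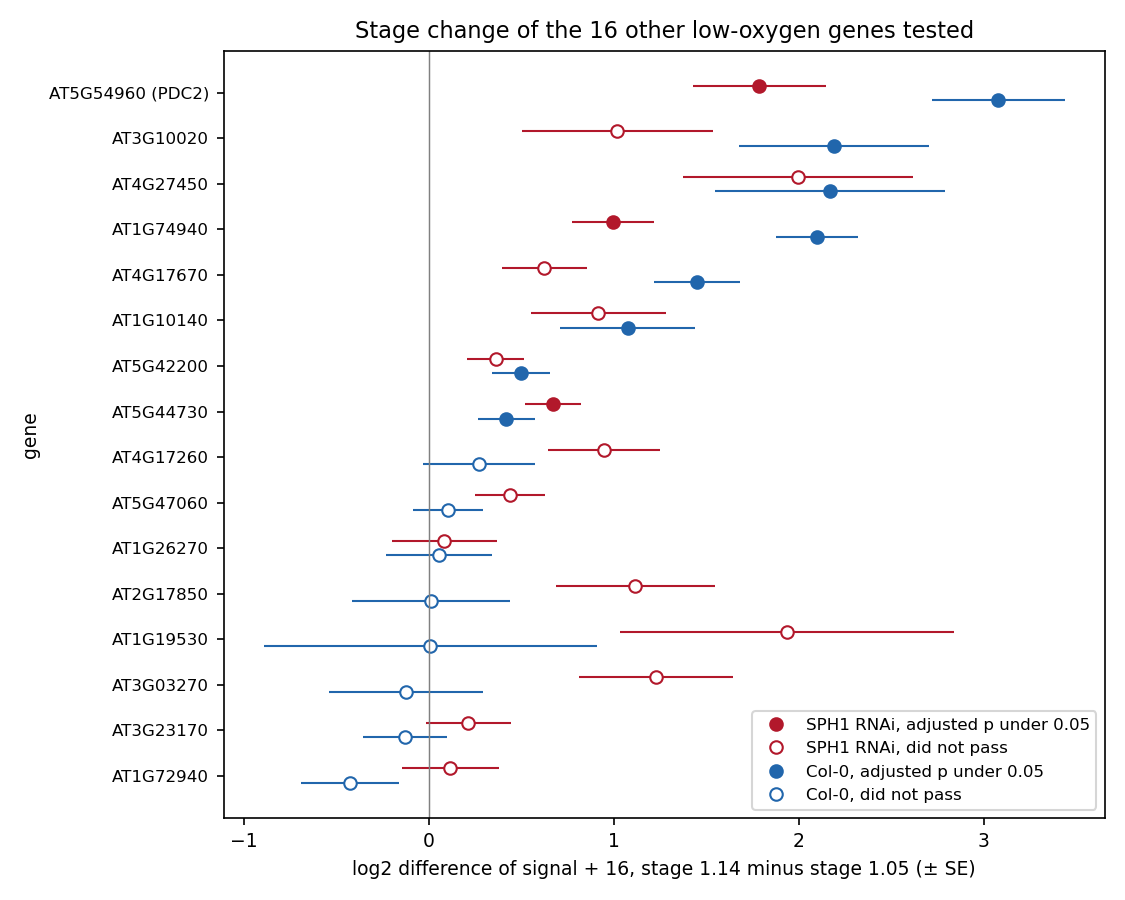
Log2 difference of signal + 16 between stage 1.14 and stage 1.05 in SPH1 RNAi (red) and in Col-0 (blue) for the 16 other low-oxygen genes that were tested, AT1G19530 included, with bars of ± SE from limma. Filled circles mark an adjusted p under 0.05, which 3 genes reached in SPH1 RNAi and 8 in Col-0.

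Genes with the most similar profiles were ranked by Pearson's r of log2 levels over the 12 arrays among 7094 tested probe sets with 1 gene. For AT1G33055 the closest were AT4G22470 (r = 0.978), AT1G19530 (0.969), AT1G50510 (0.950), AT2G17850 (0.950) and AT1G19540 (0.941). AT1G19530 and AT2G17850 are low-oxygen genes, and AT1G19540 is the locus next to AT1G19530. AT1G19540 gave 178.5 on replicate 1 of SPH1 RNAi stage 1.14, against 31.6 and 33.0 on its sister arrays. For AT4G10270 the closest were AT3G10190 (0.946), AT5G43460 (0.942), SPT (0.914), AT2G28080 (0.912) and AT1G33055 (0.906). SPT encodes SPATULA, a bHLH transcription factor of carpel and leaf growth. When levels were taken as deviations from each group's mean, AT1G19530 led for AT1G33055 (0.995) and AT5G42720 led for AT4G10270 (0.970). All these correlations share the same 12 arrays and the same high array.

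The nearest genes on the chromosome did not all follow. AT1G33055 on chromosome 1 overlaps AT1G33050 in the TAIR10.1 gene list. AT1G33050 gave 142.8, 40.9 and 61.3 in SPH1 RNAi stage 1.14, against 92.0, 72.8 and 94.8 in Col-0 stage 1.14. It was highest on replicate 1 but, unlike AT1G33055, below the Col-0 arrays on replicates 2 and 3. AT4G10270 on chromosome 4 overlaps AT4G10280, which gave 45.8, 57.5 and 42.3 in SPH1 RNAi stage 1.14, without a rise on replicate 1. AT4G10260, on the other side of AT4G10270 but not adjacent to it, gave 29.6, 19.6 and 10.4, and its 29.6 on replicate 1 was the highest of the 12 arrays, with at most 18.5 in the other groups. The sources used here do not name the strand that each probe set reads, so signals of overlapping genes may not be fully separate.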

How the data were processed

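RNA from 12 pools of 40 plants was measured on ATH1 arrays, per the labels. The authors deposited a linear signal intensity per array for each of 22810 probe sets, and the trimmed mean of these values was 100.01 on every array. The sources used here do not name the software that summarised the probes.

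The 64 control probe sets were left out, and 13263 of the other 22746 with a mean signal of at least 32 over the 12 arrays were tested. Values were transformed as log2(signal + 16), which understates changes of weak signals, and fitted over the 4 groups together with limma 3.58.1 under R 4.3.3 (lmFit, then eBayes with an intensity trend), which left 8 residual degrees of freedom. Benjamini-Hochberg adjusted p-values under 0.05 passed. The fit was tested on simulated data. Alternatives changed the offset to 1 or 64, the normalization, the filter, array weights, a replicate block, the groups fitted and the arrays.

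The genes, the lists and the tests were chosen with earlier results of these data known. Named from the lists were the genes that passed and those with the highest correlations. Genes with large deviations on SPH1 RNAi stage 1.14 replicate 1 were named in part, not all of them. Others, such as CML38, were named as genes of their list that could be read, or because they went the other way. Genes were assigned to probe sets by the platform annotation, and names and gene order came from the TAIR10.1 gene list. No listed probe set was available here for 8 genes of oxygen sensing and 8 flower genes. Of 14 wounding genes THI2.1 and of 6 shoot meristem genes CLV3 could be read. The number of arrays limits the precision.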

Additional observations from a re-analysis of the deposited data

How the results depend on the processing

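With an offset of 1 in place of 16, the log2 differences of AT1G33055 were 3.85 and 0.23 for SPH1 RNAi minus Col-0 at stages 1.14 and 1.05, and 3.92 and 0.29 for stage 1.14 minus 1.05 in SPH1 RNAi and Col-0. With an offset of 64 the last was 0.0199. The counts of other low-oxygen genes that passed at stage 1.14 between genotypes, 2 as reported, were 7 with array quality weights (5 higher, 2 lower, SPH1 RNAi stage 1.14 replicate 1 weighted 0.2568), 1 with quantile normalization or the replicate block, and 0 with no filter or with the arrays of the 2 groups alone. At stage 1.05, 2 passed with array weights and 2 with the replicate block. The interaction passed for 3 with weights and 1 with the block. Shares over all probe sets under these settings are not given, so these counts are not read as results about the list. The weights ran from 0.2568 to 6.0435, the highest on Col-0 stage 1.14 replicate 3, whose sister arrays had 1.3994 and 0.448. The weighted Col-0 level at stage 1.14 therefore rests mostly on 1 array. In SPH1 RNAi the stage count was 1 with the 2 groups alone. Leaving out each array gave 0 to 3 genes for genotype at stage 1.14, 1 to 2 at stage 1.05, 1 to 6 for stage in SPH1 RNAi, 4 to 9 for stage in Col-0 and 0 to 2 for the interaction. The differences of AT1G33055 ranged over 1.16 to 2.94, 0.02 to 0.08, 1.17 to 2.95 and 0.04 to 0.09, and those of AT4G10270 over 1.45 to 2.82, 0.09 to 0.76, 0.58 to 1.95 and -0.68 to -0.11, for genotype at stages 1.14 and 1.05 and stage in SPH1 RNAi and Col-0. No difference changed sign, and the cause of the other shifts was not tested. Whether the replicate numbers pair the arrays was not settled. Deviations correlated above 0.1 in 7 of 18 same-numbered pairs and in 7 of 36 pairs of unlike number. The median r was 0.0246 (-0.2483 to 0.49) for same-numbered pairs and -0.0438 (-0.4887 to 0.3774) for the others. The highest, 0.49, joined SPH1 RNAi stage 1.14 replicate 1 and Col-0 stage 1.14 replicate 1. The block therefore stands for a shared number alone. Weak signals limit AT1G33055 outside SPH1 RNAi stage 1.14, where the offset of 16 exceeds the signal.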
